A study of Bos taurus with 43 samples.

Results

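The transcripts described here are those of 4 genes that oxidative skeletal muscle fibres express at a high level: CA3 (carbonic anhydrase 3), FHL1 (a protein built of LIM domains), MB (myoglobin) and FABP3 (the heart-type fatty acid-binding protein). A probe was counted as theirs if its gene name, its description or the symbol behind its accession was one of these 4. By that rule each gene had 1 probe, printed as 2 spots: A_73_104028 for CA3, A_73_115907 for FHL1, A_73_119736 for MB and A_73_111582 for FABP3, so that 4 of the 15593 gene symbols on the array are covered. The genes were chosen by their signal across the 5 sets of arrays compared below, so those signals and the differences between them are a description and carry no test.

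RNA from the biceps brachii, a forelimb muscle, of 43 cattle was hybridized to a single-colour bovine array, 1 animal per array. The suspected animals (S21, S54, S56 and S57) carry the status of suspected corticosteroid treatment in the labels, and the study classed them as positive by thymus histology and by dexamethasone in urine. The urine value of S56 was below the limit of quantification. The 21 unknown animals came from the same slaughterhouse survey with no known treatment. The study detected no dexamethasone in their urine, and it counted some samples other than the positives as dubious by histology. The suspected and the unknown animals were male beef cattle of 12 to 24 months, mostly Charolais, Limousine or their cross, with no breed given per animal. The negative controls were 5 untreated K animals, cross-bred Charolais and Limousine bulls of 18 months, and 13 untreated C animals, male Holsteins of 13 to 18 months. The unknown animals are given here in the study's own parts, B (10 animals) and A (11 animals). The study drew that division from a principal component plot of the same arrays, so B and A were separated by expression to begin with. The labels do not give these parts, and the part of each animal was read by eye from the picture of that plot.

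CA3 hydrates carbon dioxide and is the main soluble carbonic anhydrase of slow fibres. FHL1 is a LIM-domain protein of the sarcomere and nucleus that is known for its role in fibre growth and for inherited myopathies. MB stores oxygen and passes it to mitochondria, and FABP3 carries fatty acids through the cytosol to mitochondrial oxidation. All 4 are typical of fibres that live on aerobic metabolism.

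Several arrays stood apart from the others before any of these genes was considered. Averaged over the 7 spike-in RNAs with most signal, the normalized log2 signal was 7.75 to 8.41 in unknown animals 29, 39, 52, 61 and 76, all of part B, and 11.33 to 13.4 on the other 38 arrays. The array of unknown animal 79 had 40.2% of its spots well above background and 541 outlier spots, and that of animal 50 had 97.3% and 1, against 62.3% to 89.4% and 2 to 167 on the other 41 arrays. HOXA9 (probe A_73_116160), a gene of limb position, had a log2 signal of 9.49 to 10.87 in all 18 controls and of 10.16 to 10.93 in 5 animals of unknown A. It was at 1.80 to 4.56 in the other 6 animals of unknown A and at 1.41 to 6.22 in the suspected animals and unknown B. The Y-linked gene ZFY was at 2.84 to 4.53 in unknown A and at 5.47 to 7.26 elsewhere, although the study describes all animals as male, while UTY, also Y-linked, overlapped (5.83 to 7.2 and 4.74 to 7.46). HOXA9, ZFY and UTY were picked here with their values in view. Their part in the levels below was not tested.

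The labelled tissue was borne out by its markers. All 7 skeletal muscle markers, such as CKM (muscle creatine kinase) and DES (desmin), were well above background on all 43 arrays. Of 4 cardiac markers on the array, only TNNI3 passed the filter on low signal. The filter removed NPPA and MYL7, although they were well above background on all 4 suspected arrays (means 5.39 and 4.42). On the K arrays they were so on 0 of 5.

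CA3 was high in the suspected animals, unknown B and the C controls, intermediate in the K controls and low in unknown A. In the suspected animals its normalized log2 signal was 15.99 in S21, 16.01 in S54, 15.72 in S56 and 15.70 in S57. In the K controls it was 14.70 in K7, 14.49 in K8, 14.08 in K10, 14.22 in K11 and 14.07 in K12. Every suspected animal thus lay above every K control. Unknown B ran from 15.56 to 16.01 with a median of 15.82, and unknown A from 11.23 to 12.73 with a median of 12.01. The C controls ran from 15.38 to 16.14 (median 15.67). The lowest array of the 3 high sets was therefore above the highest K control, and the lowest K control was above the highest array of unknown A.

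The mean CA3 signal was 15.86 ± 0.17 (SD, n = 4) in the suspected animals and 14.31 ± 0.27 (SD, n = 5) in the K controls, a difference of 1.54 on the log2 scale (SE 0.15), or 2.92-fold. The C controls (15.70 ± 0.21, SD, n = 13) exceeded the K controls by 1.39 (SE 0.13), or 2.62-fold. Between unknown B (15.82 ± 0.15, SD, n = 10) and unknown A (11.98 ± 0.46, SD, n = 11) the difference was 3.84 (SE 0.15), or 14.4-fold, and only 43 of the 16354 probes kept after the filter on low signal had a larger difference of means in that direction. Unknown A lay 2.33 below the K controls (SE 0.18), or 5.04-fold, and without normalization the difference was -3.24. Among the 3 high sets, the means differed by 0.03 to 0.15, and their ranges overlapped.

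**Figure D1:**
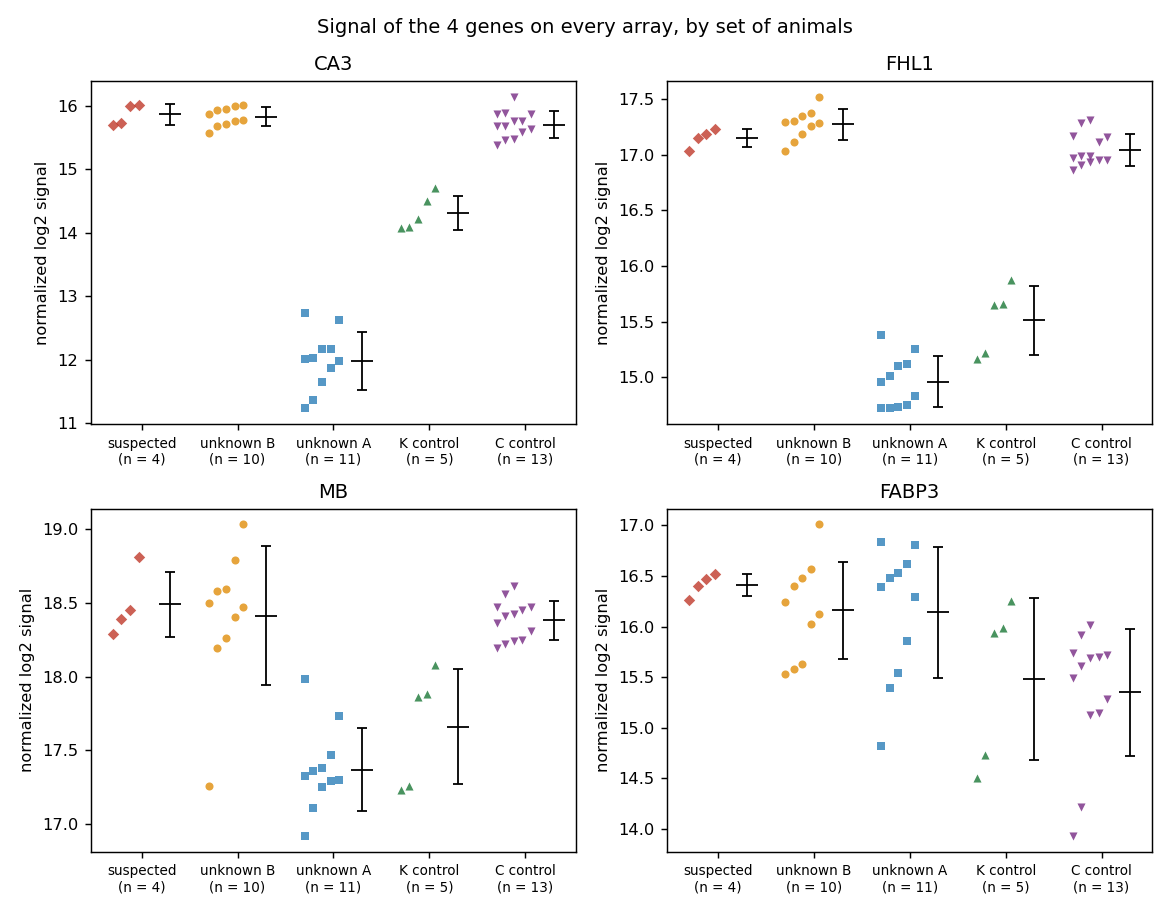
Normalized log2 signal of CA3, FHL1, MB and FABP3 (vertical axes) on each of the 43 arrays, grouped by set of animals, with the mean and SD of each set in black. CA3 forms 3 levels, with unknown A lowest at a mean of 11.98 and the K controls at 14.31, FHL1 and MB are low in unknown A and the K controls, and FABP3 overlaps between most sets.

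FHL1 had the same high sets as CA3, but its K controls were closer to unknown A. The suspected animals had log2 signals of 17.18 in S21, 17.03 in S54, 17.23 in S56 and 17.15 in S57. The K controls had 15.87 in K7, 15.65 in K8, 15.16 in K10, 15.66 in K11 and 15.22 in K12. The groups did not overlap. Unknown B ran from 17.03 to 17.52 (median 17.29), the C controls from 16.86 to 17.31 (median 16.99) and unknown A from 14.72 to 15.38 (median 14.96).

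The suspected mean of FHL1, 17.15 ± 0.08 (SD, n = 4), was 1.64 above the K mean of 15.51 ± 0.31 (SD, n = 5; SE of the difference 0.14), or 3.11-fold. The C controls were 1.53 above the K controls (SE 0.14). Unknown B exceeded unknown A by 2.31 (SE 0.08), or 4.95-fold. Both FHL1 spots were saturated on the array of animal 76 in unknown B, so its level there is a lower limit. In the order of means, unknown B, suspected animals and C controls came first and overlapped in range, and K controls and unknown A came last, 0.55 apart (SE 0.15), with overlapping ranges.

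MB followed the same division with smaller differences. Its log2 signal was 18.45 in S21, 18.29 in S54, 18.81 in S56 and 18.39 in S57. Among the K controls it was 18.08 in K7, 17.88 in K8, 17.26 in K10, 17.86 in K11 and 17.23 in K12. The lowest suspected animal, S54, was above the highest K control, K7. Unknown B ran from 17.26 (animal 76) to 19.03 (median 18.49), unknown A from 16.92 to 17.98 with a median of 17.33, and the C controls from 18.19 to 18.61 with a median of 18.41. Without animal 76, no array of unknown B would have been below 18.19. Both MB spots of animal 76 were saturated, so that 17.26 is a lower limit, and its array had 109 saturated spots in all, against at most 5 on any other array.

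The suspected mean of MB was 18.49 ± 0.22 (SD, n = 4) and the K mean 17.66 ± 0.39 (SD, n = 5), 0.82 apart (SE 0.21). This difference was -0.61 when the arrays were loess-normalized pair by pair (cyclic loess applied to each pair), so that the direction of MB against the K controls depends on the normalization. The C controls exceeded the K controls by 0.72 (SE 0.18), and unknown B exceeded unknown A by 1.03 (SE 0.17). MB was so bright that 11 of its 86 spots were saturated, on 5 arrays of unknown B and 1 array of the C controls, so its levels there are lower limits. The spots of one array differed by a median of 0.20 log2 units for MB, against 0.07 for CA3.

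FABP3 did not share this division. Its log2 signal was 16.40 in S21, 16.52 in S54, 16.26 in S56 and 16.47 in S57. In the K controls it was 14.73 in K7, 15.99 in K8, 14.50 in K10, 16.25 in K11 and 15.94 in K12. The suspected animals were close together, with an SD of 0.11 against 0.80 in the K controls, and the lowest of them, S56, was barely above K11. Unknown B ran from 15.53 to 17.01 (median 16.18), unknown A from 14.82 to 16.84 (median 16.39) and the C controls from 13.93 to 16.02 (median 15.61).

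The mean of FABP3 was 16.41 in the suspected animals, 16.16 in unknown B, 16.14 in unknown A, 15.48 in the K controls and 15.35 in the C controls. The ranges of neighbours in this order overlapped. The range of the suspected animals lay within that of unknown B and above those of the K and C controls. Unknown B and unknown A differed by 0.02 (SE 0.25), and the C and K controls by 0.13 (SE 0.40), with C lower. The suspected animals exceeded the K controls by 0.93 (SE 0.36) and the C controls by 1.06 (SE 0.18). The difference from the K controls was 0.12 without normalization and 0.33 with pairwise cyclic loess.

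Because these signals chose the genes, the counts of calls are given only beside the share of all probes. In limma fits over 16354 probes, a probe was called at an adjusted p under 0.05 and at least 2-fold. CA3 and FHL1 were among the 28.1% of probes called between the suspected animals and the K controls, and among the 20.6% called between the C and K controls. Against the K controls the suspected animals were under 2-fold for CA3 without normalization (0.63) and for FHL1 without normalization (0.86) and with pairwise cyclic loess (0.93), and the C controls for CA3 without normalization (0.72). MB and FABP3 were under 2-fold in both comparisons. In the suspected animals both were over it with 75th percentile scaling (1.38 and 1.30) and with normexp background correction (1.36 and 1.15). MB was also over it there without the K controls read with the older scanner software (1.04), and in the C controls with 75th percentile scaling (1.24). FABP3 was over it in the suspected animals without K8, K11 or K12 (1.05 to 1.12). The 4 ranges did not overlap between suspected animals and K controls, as for 43.3% of probes. CA3, FHL1 and MB did not overlap between C and K controls, as for 16.2%. CA3 and FHL1 did not overlap between unknown B and A, as for 11.7%. CA3, FHL1 and MB differed at least 2-fold between B and A, as did 25.9% of probes, although MB was under 2-fold with pairwise cyclic loess (0.46) and with quantile normalization (0.58). Both control comparisons used the same 5 K controls.

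The scan days of the arrays followed the same line as the levels. The K controls were scanned on days 1 to 3 and unknown A on days 4 and 5, and the suspected animals, unknown B and the C controls on days 6 to 13. CA3 was at 11.23 to 14.70 on the 16 early arrays and at 15.38 to 16.14 on the 27 later ones, and FHL1 at 14.72 to 15.87 and at 16.86 to 17.52. MB was at 16.92 to 18.08 and at 17.26 to 19.03, and FABP3 overlapped widely (14.50 to 16.84 and 13.93 to 17.01). No slide or scan day held arrays from both sides, so scan day and set of animals cannot be told apart for CA3, FHL1 and MB. The K controls were also read on other scanners than the rest.

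**Figure D2:**
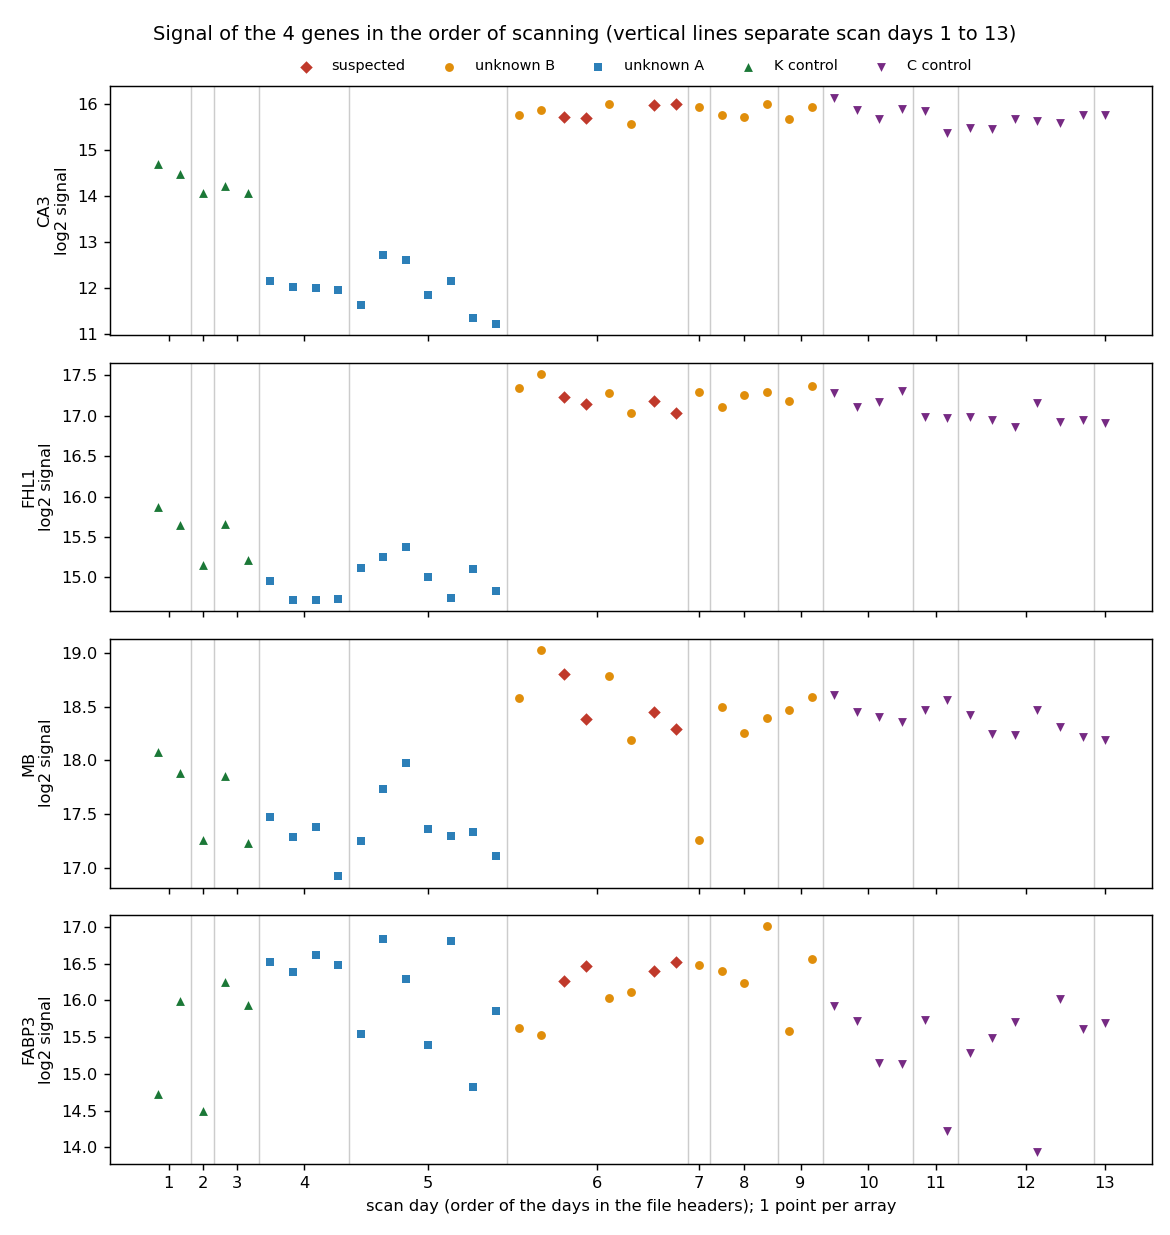
Normalized log2 signal of the 4 genes (vertical axes) on the 43 arrays in the order of their 13 scan days (horizontal axis), with a symbol for each set of animals. CA3 and FHL1 step up between scan days 5 and 6, where the animals also change from unknown A to the suspected animals and unknown B, and FABP3 does not.

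Unknown A was spread over 3 slides, whose ranges of CA3 overlapped. On the slide with animals 37, 38, 49 and 51 it was at 11.97 to 12.17, on that with 36, 58 and 269 at 11.64 to 12.73, and on that with 263, 265, 266 and 270 at 11.23 to 12.17. The 5 animals of unknown A with HOXA9 at the level of the controls had CA3 at 11.23 to 12.17, and the other 6 at 11.97 to 12.73. Both parts lay below the lowest K control.

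The suspected animals shared 2 slides with unknown animals 50, 78, 79 and 81, the only setting in which they can be compared within a slide. CA3 differed there by 0.06 (SE 0.13), FHL1 by -0.15 (SE 0.11) and MB by -0.16 (SE 0.21), each with overlapping ranges. FABP3 was the exception. Its signal in the unknown animals was 15.63 in animal 50, 16.03 in 78, 16.12 in 79 and 15.53 in 81, all below the lowest suspected animal. The difference was 0.59 (SE 0.16), or 1.5-fold, and it was 0.79 on the slide with S56 and S57 and 0.38 on that with S21 and S54. In this comparison 6.63% of probes had ranges that did not overlap. With the slide as a block, limma called 0 of 16354 probes (0.0%), while 1873 had an unadjusted p under 0.05. The suspected minus unknown difference of FABP3 was 0.43 to 0.86 under the 7 other ways of processing. It was 0.69 without animal 79 and 0.52 without animal 50, whose arrays stood apart in the share of spots above background.

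CA3 and FHL1 moved together over the 43 arrays, as did both with MB. Pearson's r was 0.95 for CA3 and FHL1, 0.88 for FHL1 and MB and 0.84 for CA3 and MB. It was -0.11 for CA3 and FABP3, -0.11 for FHL1 and FABP3 and -0.14 for MB and FABP3. These values describe arrays that share sets, slides and scan days. After the mean of each set was removed, r was 0.46 for CA3 and FHL1, 0.60 for FHL1 and MB, 0.38 for CA3 and MB, 0.46 for CA3 and FABP3, -0.15 for FHL1 and FABP3 and -0.11 for MB and FABP3. Within single sets, r for CA3 and FHL1 was 0.35 in unknown A, 0.61 in unknown B and 0.57 in the C controls. It was 0.71, 0.05 and 0.21 in these sets for CA3 and MB, and 0.72, 0.45 and 0.47 for CA3 and FABP3. FABP3 had an r of -0.27, -0.18 and -0.23 with FHL1 and of 0.20, -0.41 and -0.36 with MB. The suspected animals and the K controls were too few for a value of their own.

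**Figure D3:**
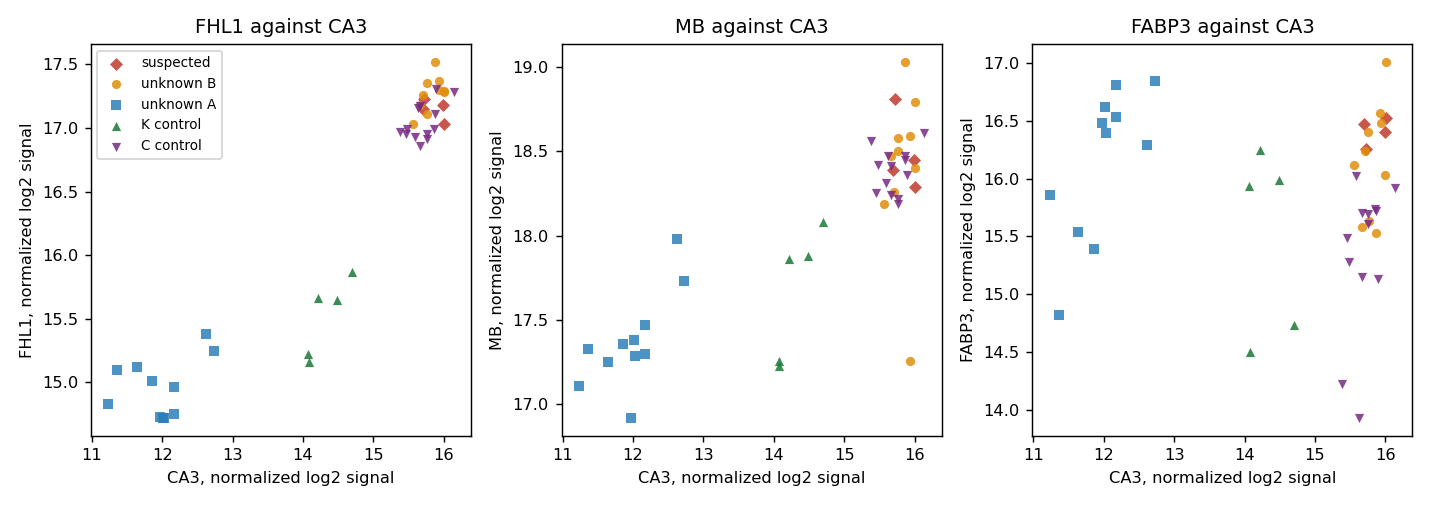
Normalized log2 signal of FHL1, MB and FABP3 (vertical axes) against that of CA3 (horizontal axis), 1 point per array, with a symbol for each set of animals. FHL1 and MB rise with CA3 from unknown A through the K controls to the other sets (r = 0.95 and 0.84 over 43 arrays), and FABP3 spreads over a similar range at each level of CA3 (r = -0.11).

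The genes whose signal was most like that of each member were found by Pearson's r over the 43 arrays and again with the set means removed. For CA3 the first list was COMMD4, SLC25A4, RPL34, RPS18 and AGPAT1, with r of 0.977 to 0.991, of which SLC25A4 is the ADP/ATP carrier of muscle mitochondria and RPL34 and RPS18 are ribosomal proteins. All 5 were higher in unknown B than in unknown A, by 2.19 to 4.44 on the log2 scale. With the set means removed, ACADM led (r = 0.809), the medium-chain acyl-CoA dehydrogenase of fatty acid oxidation, followed by COQ9, which serves ubiquinone synthesis, MYO15A, UQCRC2, a subunit of respiratory complex III, and ARPC1A.

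For FHL1 the list over 43 arrays was ACTA1 (skeletal alpha-actin), TMEM218, MOCS3, GNAS and NDUFA4, with r of 0.980 to 0.987. ACTA1 also led with the set means removed (r = 0.870), followed by ATP6, MMP25, KRT35 and FREQ. For MB both lists held COX2, the mitochondrially encoded subunit of cytochrome oxidase (r = 0.951 and 0.872), the slow myosin chains MYH7 and MYL2, and ACTA1. ALDOA completed the first list and COX3 the second. For FABP3, RETREG1 (r = 0.849), BDH1, NT5C2, AQP7 and ACOX2 came first over 43 arrays, where BDH1 is a ketone body enzyme and AQP7 a glycerol channel. With the set means removed they were BDH1 (r = 0.845), RETREG1, ACOX2, MYL12A and MYOZ2. Spearman's rho gave 0 of the same 5 genes for CA3, 1 for FHL1, 3 for MB and 4 for FABP3.

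Of the 15 carbonic anhydrases listed, 13 were on the array and 9 passed the filter on low signal. Apart from CA3, 1 of 8 was called higher in the suspected animals than in the K controls and none lower, with a median difference of 0.20 against -0.03 over all probes, of which 28.1% were called. That gene was CA4, the membrane-bound form of capillaries and muscle membranes, at 10.91 and 9.23 on average (log2 difference 1.69, SE 0.36, limma adjusted p = 0.00288). CA2, the widespread cytosolic form, was at 10.10 and 10.95 (-0.85, adjusted p = 0.00826) and did not reach 2-fold, but passed without the K controls read with the older scanner software (-1.09). CA14 (-0.76), CA11 (-0.77) and CA5A (-0.36) did not pass. The absence of lower calls depends on the normalization: with pairwise cyclic loess CA2 (-1.0), CA11 (-1.56) and CA5A (-2.37) passed, and without normalization CA2 (-2.06), CA11 (-2.04) and CA14 (-1.91), while CA4 (0.46) did not. CA6, CA7 and CA9 did not pass either and were well above background on 0, 1 and 2 of the 5 K arrays, so no difference is given. CA7 passed without K12, and CA9 without K8 or without the K controls read with the older software. CA1, CA5B, CA8 and CA12 were removed by the filter on low signal. They were well above background on 0, 2, 4 and 2 of the 4 suspected arrays. On the 5 K arrays these counts were 1, 0, 0 and 1, so no difference is given. Across the alternative settings, 0 to 5 carbonic anhydrases, CA3 included, were called higher.

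Between the C and K controls, CA6 and CA9 were called higher in the C controls, beside 20.6% of all probes called, and CA4 was not (0.53, SE 0.21). CA6 was well above background on 9 of 13 C arrays and on 0 of 5 K arrays, and CA9 on 10 and 2, so no fold is given. Between unknown B and A, 1 of the 8 other carbonic anhydrases was higher by 2-fold or more, CA9 (4.67 and 3.66), and 1 lower, CA5A (4.40 and 5.58), beside 25.9% of all probes that differed by 2-fold. CA9 exceeded background clearly in 7 of 10 animals of unknown B and 4 of 11 of unknown A, so that most of its unknown A values were near background. CA2 (-0.56) and CA14 (-0.61) were close to each other there, against 3.84 for CA3.

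FHL3, the FHL gene that shares skeletal muscle with FHL1, went the other way from FHL1. Its mean log2 signal was 14.95 in the suspected animals, 15.11 in unknown B, 16.90 in the K controls and 15.86 in the C controls, and unknown B minus unknown A was -0.89. It fell by 1.96 in the suspected animals against the K controls (limma adjusted p = 5.84e-05). FHL2, a LIM protein best known from heart, had means of 9.11 to 9.86 in the 5 sets (-0.42 against the K controls, adjusted p = 0.377). FHL2 was called lower with pairwise cyclic loess (-1.06) and without normalization (-1.66). FHL5 exceeded background clearly on 13 of 43 arrays, 8 of them C controls. Of the 11 other LIM genes tested, 1 was called higher and 3 lower against the K controls, with a median of -0.28 and beside 28.1% of all probes called. PDLIM3, a Z-disc LIM protein, fell by 4.13 (adjusted p = 1.61e-06) and CSRP3, the muscle LIM protein, by 1.94 (adjusted p = 2.15e-04). CSRP2, a related LIM protein, rose by 1.13 (adjusted p = 0.0022), but was at -0.12 without normalization. Between the C and K controls 1 was called higher and 3 lower, beside 20.6% of all probes. The higher one was FHL5, well above background on 8 of 13 C arrays and on 0 of 5 K arrays, so no fold is given. Between unknown B and A 1 was higher and 2 lower by 2-fold, beside 25.9% of all probes.

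Of 7 other fatty acid-binding and uptake genes tested, 4 rose in the suspected animals against the K controls and none fell, with a median of 1.70 and beside 28.1% of all probes called. FABP4, the adipocyte form, had a mean of 9.80 against 4.57 in the K controls (log2 difference 5.23, limma adjusted p = 2.61e-04). Its K values were near background and varied (SD 1.73), with 4 of 5 K arrays well above it, so the size of that rise is uncertain. FABP5, the epidermal form, rose by 1.87 (adjusted p = 4.21e-04) and FABP7, the brain form, by 4.41 (adjusted p = 2.43e-04). LPL, which releases fatty acids from circulating triglyceride, also rose, from 11.60 to 13.30. FABP5 (0.75) and LPL (0.66) lost their calls without normalization, and 1 gene of the list was called lower in 2 settings. The uptake genes CD36 (0.75), SLC27A1 (0.47) and SLC27A4 (-0.28) did not pass. Between the C and K controls only FABP4 of the 7 rose, beside 20.6% of all probes called. FABP7 was at 11.21 in the suspected animals, 11.11 in unknown B and 8.24 in unknown A. It was at 6.80 in the K controls and 5.72 in the C controls, the same order of set means as for FABP3. FABP1, FABP2, FABP9 and SLC27A6 were removed by the filter on low signal. They were well above background on 2, 0, 4 and 4 of the 4 suspected arrays. Each was so on 0 of the 5 K arrays, so no difference is given.

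**Figure D4:**
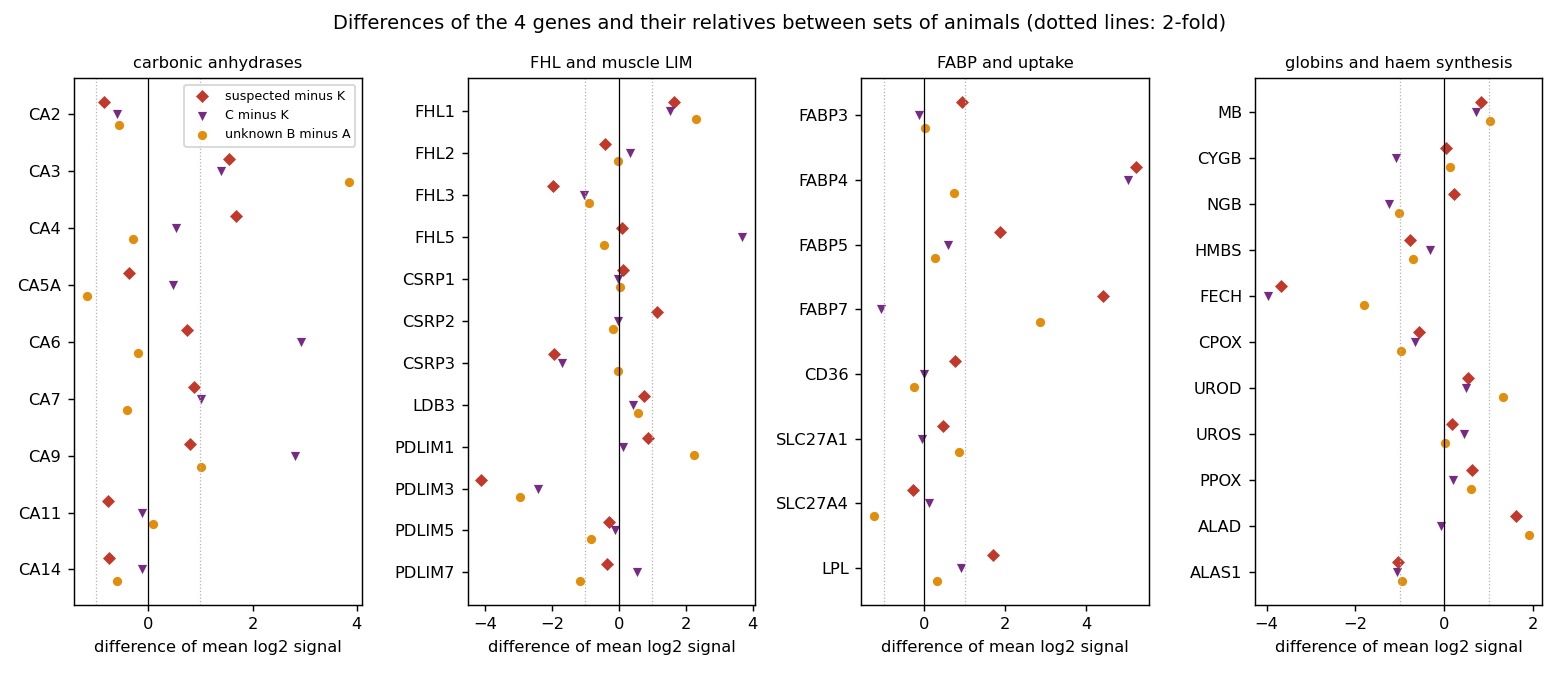
Difference of mean normalized log2 signal (horizontal axes) for each gene that passed the filter in the families of CA3, FHL1, FABP3 and MB, for suspected animals minus K controls, C minus K controls and unknown B minus unknown A. CA3 is the carbonic anhydrase with the largest difference between unknown B and A (3.84), FHL1 and FHL3 lie on opposite sides of 0, and FECH lies below 0 in all 3 comparisons, while CA6, CA7, CA9 and FHL5 were not well above background on most K arrays.

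Among globins and haem synthesis genes other than MB, 1 of 10 rose and 2 fell in the suspected animals against the K controls (median 0.11), beside 28.1% of all probes called. ALAD, the second enzyme of haem synthesis, rose by 1.61 (limma adjusted p = 9.63e-05). FECH, which inserts iron into haem, fell by 3.67 (adjusted p = 2.54e-04) and ALAS1, the first enzyme of the pathway, by 1.04 (adjusted p = 4.83e-04), or -0.94 without K11. The FECH signal in the suspected animals was near background, with a mean of 4.68 and 3 of 4 arrays well above it, so the size of its fall is uncertain. ALAS1 also lost its call with 75th percentile scaling, pairwise cyclic loess and normexp background correction. ALAD lost its call without normalization (0.55). The C controls had 4 of 10 lower than the K controls and 0 higher, beside 20.6% of all probes called. Neither CYGB nor NGB, the other globins, followed MB: CYGB had means of 8.75 to 9.88 and NGB was well above background on 22 of 43 arrays.

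Contractile genes of slow fibres ran partly with the members. Of 11 tested, 4 rose and 1 fell in the suspected animals against the K controls (median 0.71, against 28.1% of all probes called). Across the alternative settings these counts ran from 1 to 6 and from 0 to 3. Between unknown B and A, 6 were at least 2-fold higher in B and 0 lower (median 1.30, against -0.05 over all probes). Of all probes, 14.5% were higher and 11.4% lower. MYL3, a slow myosin light chain, rose by 2.09 (limma adjusted p = 2.31e-04) and MYL6B by 1.14 (adjusted p = 8.27e-04), while CASQ2, the slow calsequestrin, fell by 1.90 (adjusted p = 0.0469). MYL6B was at 0.01 with pairwise cyclic loess, and CASQ2 lost its call without any one of the 5 K controls, without S56 and without S21 (-0.97). CASQ2 also lost its call with the slide as a random block. Of 11 fast fibre genes, 8 fell and 0 rose against the K controls (median -3.31). Fast myosin-binding protein C (MYBPC2) fell by 6.01 (adjusted p = 1.15e-04), and the fast calcium pump ATP2A1 fell by 5.12 (adjusted p = 6.37e-05). Between unknown B and A, 7 of the 11 were at least 2-fold lower and 1 higher (median -1.73), against 11.4% of all probes lower and 14.5% higher. The higher one, named after its value was seen, was the fast myosin MYH4 at 14.01 and 10.18. The lower ones varied widely between animals, with SDs of 0.73 (CASQ1) to 3.08 (MYBPC2) in unknown B and of 0.87 (CASQ1) to 2.03 (TNNT3) in unknown A. The C controls had CA3, FHL1 and MB levels like those of the suspected animals without such a decrease: 2 fast fibre genes were higher and 2 lower than in the K controls (median 0.55), and ATP2A1 was at 17.70, against 17.16 in the K controls and 12.03 in the suspected animals. In slow fibre genes the C controls had 1 higher and 3 lower. Over all probes 20.6% were called between C and K controls.

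Beside 28.1% of all probes called, 2 of 16 mitochondrial fatty acid oxidation genes rose and 0 fell in the suspected animals against the K controls (median 0.60), ACAA2 by 1.28 (limma adjusted p = 4.62e-05) and ACADS by 1.08 (adjusted p = 2.49e-04), or 0.98 without the K controls read with the older scanner software. Between the C and K controls 0 of 16 were called (median -0.19), beside 20.6% of all probes, and between unknown B and A 3 were at least 2-fold higher, beside 14.5%. Of 16 citric acid cycle genes, 0 rose and 2 fell against the K controls (median 0.21), DLST by 1.16 (adjusted p = 0.00862) and IDH3A by 1.04 (adjusted p = 0.00439), and 2 fell between C and K controls. DLST was under 2-fold without S21 (-0.87), and IDH3A without K7, K10, S21, S54 or S56 (-0.98 to -0.92). Among 14 regulators of the oxidative fibre programme, 2 rose and 2 fell. ESRRG, a nuclear receptor of oxidative metabolism, rose by 2.27 (adjusted p = 1.16e-04) and PPARGC1A, its coactivator, by 1.82 (adjusted p = 8.42e-06), while MEF2C fell by 1.24 (adjusted p = 0.00404). PPARD was called lower but was not well above background on any suspected array. Between the C and K controls 1 of 14 rose and 2 fell, again beside 20.6% of all probes called. PPARGC1A was also the riser there, by 2.65 (adjusted p = 3.37e-05), and ESRRG was at 0.17 (SE 0.41).

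Fewer cells of a type and less RNA per cell cannot be told apart in whole muscle. Of 5 adipocyte markers tested, 4 rose in the suspected animals against the K controls (median 2.62) and 4 in the C controls (median 2.42), beside 28.1% and 20.6% of all probes called. Between unknown B and A, 3 of them were at least 2-fold higher in B and 0 lower, beside 14.5% of all probes higher and 11.4% lower. CIDEC, a lipid droplet protein, rose by 4.09 against the K controls (limma adjusted p = 7.67e-05), beside FABP4. The linear signals of the 6 adipocyte markers on the array were summed and the log2 of the sum taken, so that the brightest markers weigh most. This level was 11.36 to 12.28 in the suspected animals and 11.23 to 14.31 in unknown B. It was 9.72 to 11.61 in unknown A, 9.44 to 9.97 in the K controls and 9.02 to 12.40 in the C controls. The K controls were lowest in the mean of that sum (9.65) and unknown A next (10.72), whereas for CA3 unknown A was lowest. Of the markers, LEP was removed by the filter and ADIPOQ exceeded background clearly on 1 of 5 K arrays. ADIPOQ was also among those higher in unknown B, but exceeded background clearly on only 5 of the 11 arrays of unknown A. The part of adipocytes in the levels of CA3 and FABP3 was not tested.

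The counts of other markers stand beside the same 28.1% of all probes called between the suspected animals and K controls and 20.6% between C and K controls. Of 7 skeletal muscle markers 1 rose in the suspected animals, ACTA1 by 1.41 (limma adjusted p = 2.00e-04), and 1 fell, TTN by 1.46 (adjusted p = 2.82e-04). ACTA1 lost its call with pairwise cyclic loess and without normalization (0.45 to 0.68). Both were also called in the C controls, with ACTA1 at 1.14 and TTN at -2.6. Between unknown B and A, 2 of the 7 were at least 2-fold higher and 0 lower, beside 25.9% of all probes. They were ACTA1 (2.02) and NEB (1.63), and TTN differed by -0.11. The log2 of the summed linear signals of the 7 was 19.14 on average in the suspected animals, 19.17 in unknown B and 18.61 in unknown A. It was 18.98 in the K controls and 19.14 in the C controls. Of 6 endothelial markers 3 rose, TEK by 1.64 (adjusted p = 3.40e-04) and VWF by 1.55 (adjusted p = 9.95e-04) the most, and between C and K controls 0 of 6 were called. TEK lost its call with pairwise cyclic loess and without normalization (0.38 to 0.87). Of 6 fibroblast markers 3 fell, all of them collagens, COL1A1 by 2.35 (adjusted p = 0.00341) and COL1A2 by 1.90 (adjusted p = 0.00585) the most, while 3 rose in the C controls. DCN (0.25), LUM (0.54) and PDGFRA (-0.18) were not called against the K controls. Also higher in the suspected animals were 1 of 4 smooth muscle markers (ACTA2, by 1.11, adjusted p = 0.00577), the cardiac TNNI3 (by 1.62, adjusted p = 0.00466, and by 1.64 in the C controls) and 1 of 2 erythroid markers (HBB, by 1.0, adjusted p = 0.00219, but -1.12 with pairwise cyclic loess). Leaving out single animals put ACTA2 under 2-fold without K10, K12 or S56 (0.97 to 0.98) and HBB without K7, K8, K12, S21, S54 or S57 (0.91 to 0.99). HBB also lost its call with the slide as a random block. Their part in the members' levels was not tested.

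Under 7 alternative ways of processing, the differences of CA3 between suspected animals and K controls, C and K controls, and unknown B and A kept their direction, and that of MB between suspected animals and K controls did not. Between the suspected animals and the K controls, CA3 was higher by 0.63 to 1.82 and FHL1 by 0.86 to 2.05 under the 7 alternatives, with the lowest value for both without normalization, where the median of all probes moved to -1.07. FABP3 was higher by 0.12 to 1.30 and MB by -0.61 to 1.38. Between unknown B and A, CA3 stayed between 3.76 and 4.10 and FHL1 between 1.94 and 2.71. Without the 5 animals with dim spike-in RNAs, the difference of B and A was 3.80 for CA3, 2.33 for FHL1, 1.20 for MB and -0.23 for FABP3.

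**Figure D5:**
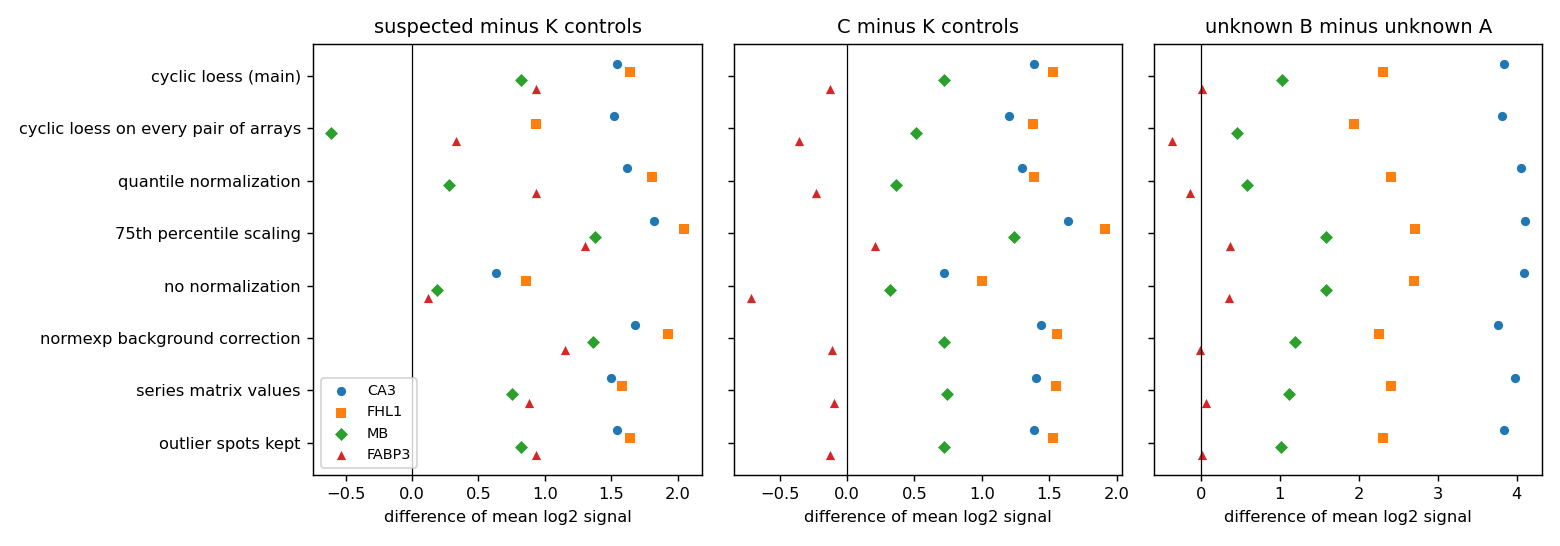
Difference of mean log2 signal of the 4 genes (horizontal axes) between suspected animals and K controls, between C and K controls and between unknown B and A, for the processing used in the text (top) and 7 alternatives. CA3 and FHL1 lie above 0 in each, MB falls to -0.61 against the K controls with pairwise cyclic loess, and FABP3 lies near 0 between unknown B and A.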

How the data were processed

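RNA of 43 bovine biceps brachii samples was measured, 1 sample per array. The authors deposited the scanner output of each array, with intensity values per spot from Agilent Feature Extraction (versions 9.1.3.1, 9.5.1.1 and 9.5.3.1, per the file headers), already corrected for background; the other deposited columns used were flags for saturated spots, outlier spots and spots well above background. A deposited value table of the same arrays served as an alternative. Log2 intensities of gene spots and 10 spike-in RNAs, without outlier spots, were normalized here by cyclic loess over 43 arrays (limma 3.58.1, R 4.3.3) and averaged per probe. Probes with a log2 signal under 4 on at least 30 arrays were removed (16354 of 21475 kept, among them the 4 members).

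Symbols came from accessions, gene IDs, descriptions and names, so that 4295 probes had none. Groups were taken from the labels, and the parts A and B of the unknown animals from the study's plot. Fits used limma with eBayes and Benjamini-Hochberg adjustment over all probes kept, with the slide as a block within shared slides. The fit without a block was tested on simulated arrays with independent values. The normalization, the filter and the slide block were not tested in this way. Each array held 1 animal, so that p-values rest on the spread between animals within each group, and the number of arrays limits the precision. The study took its commercial animals from several batches, which are not given per animal, so animals of a group may share a batch. The main fits against the K controls had no slide or batch term. No K array shared a slide, scan day or scanner with the others, so these p-values do not separate group from batch.

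The members and all gene lists were chosen with earlier results of these data known. Named were the members, every carbonic anhydrase, FHL and FABP gene, in each other list the 2 largest increases and 2 largest decreases called against the K controls, and the 5 genes most like each member. Each gene had 1 probe in the lists, the one with the highest mean signal. Alternatives changed the normalization, background correction, filter, samples and batch terms. The leukocyte marker list is not reported here, and no sequences are shown.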

Additional observations from a re-analysis of the deposited data

Results flagged for a closer look

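In unknown B, the MB signal of animal 76 (17.26) was further from its nearest neighbour (18.19) than Dixon's criterion for 10 samples allows, with a gap of 0.525 of the range. Both MB spots of this animal were saturated, so that its MB value is a lower limit, and its array had 109 saturated spots, against at most 5 on any other. The log2 of its summed linear adipocyte marker signals (14.31) was the highest of the 43 arrays. Animal 76 was 1 of the 5 animals with dim spike-in RNAs (mean log2 signal 7.76), and its CA3 (15.94), FHL1 (17.30) and FABP3 (16.48) lay within the range of the other animals of unknown B, the FHL1 value again from saturated spots. The part of saturation in the MB value was not tested. This was the only one of 12 groups of 4 to 10 samples so marked, and chance marks about 1 in 20.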

How the results depend on the processing

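No paired analysis was possible because the labels give each animal its own number and no number is shared between groups. Scan day and set of animals cannot be told apart, except between the suspected animals and the 4 unknown B animals on their slides, MB is close to saturation, and 2 suspected and 2 unknown animals on each shared slide limit the within-slide values. The cause of the shifts below was not tested.

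Of the differences between suspected animals and K controls, CA3 moved to 1.82 with scaling to the 75th percentile and 0.63 without normalization. FHL1 moved to 0.93 with pairwise cyclic loess, 2.05 with percentile scaling, 0.86 without normalization and 1.93 with normexp. MB turned to -0.61 with pairwise cyclic loess and moved to 0.28 with quantile normalization, 1.38 with percentile scaling, 0.19 without normalization and 1.36 with normexp. FABP3 moved to 0.12 without normalization. Leaving out 1 animal at a time gave 1.48 to 1.64 for CA3, 1.55 to 1.73 for FHL1, 0.72 to 0.93 for MB and 0.69 to 1.12 for FABP3. Between unknown B and A, FHL1 moved to 1.94 with pairwise cyclic loess, 2.71 with percentile scaling and 2.70 without normalization, and MB to 0.46, 1.59 and 1.58, and to 0.58 with quantile normalization. Between C and K controls, percentile scaling moved CA3 to 1.64, FHL1 to 1.91 and MB to 1.24, the lack of normalization moved them to 0.72, 1.0 and 0.32, and MB was at 0.36 with quantile normalization, while FABP3 lay between -0.71 and 0.21. Between unknown A and K controls, where the alternatives were added after seeing the data, the lack of normalization gave -3.24 for CA3, -1.52 for FHL1, -1.32 for MB and -0.29 for FABP3.

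Between suspected animals and K controls limma called 4597 probes, but 9828 without normalization, 1378 with normexp and 7589 without the filter. Leaving out 1 animal gave 4356 to 4654. The share of calls that were higher was 51.1%, and it was 33.5% with pairwise cyclic loess, 39.1% with quantile normalization, 69.1% with percentile scaling, 66.8% with the filter on signal well above background and 12.4% without normalization. Between C and K controls the count of 3361 moved to 8613 without normalization and 1350 with normexp, and ran from 3155 to 3302 without 1 K control. Of these calls 52.9% were higher, against 35.4% with percentile scaling and 3.66% without normalization. On the shared slides the count stayed at 0, except for 9 without animal 79. With the slide as a random block and without the K controls read with the older software, both added after seeing the data, 4432 and 4594 probes were called against the K controls.

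Of the 35 named genes called between suspected animals and K controls, HBB turned to -1.12 with pairwise cyclic loess and CSRP2 to -0.12 without normalization. Without normalization 15 lost their call, among them ACAA2 (0.33), ACADS (0.13), ACTA2 (0.07), VWF (0.36) and TNNI3 (0.37), with pairwise cyclic loess 8, with normexp 7, with all 43 arrays in 1 fit 7, and with each other setting 0 to 4. Of the named genes not called, CA5A, CA6, CA7, CA9 and FHL5 changed sign under at least 1 setting, CA6, CA7, CA9 and FHL5 with signals near background. Calls were gained by CA2, CA5A, CA11 and FHL2 with pairwise cyclic loess, by CA2, CA11, CA14 and FHL2 without normalization and by CA6, CA7 and CA9 with percentile scaling.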
